A study of Equus caballus with 11 samples.

Results

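A set of 779 CpG sites was more methylated in the liver of horses than in both heart and lung. The sites were taken from the 68147 CpGs on chromosomes 1 to 31 that had 10 or more reads in all 11 libraries once the 2 strands of each CpG were combined, and they made up 1.14% of these common CpGs. A CpG was chosen when its liver mean lay at least 20 percentage points above the heart mean and the lung mean, when the heart and lung means differed by under 15 points, and when the lowest liver library lay above the highest heart or lung library. A tissue mean here is the plain mean of the percentages of unconverted cytosines (methylation levels) in the libraries of that tissue. The levels themselves made the choice, so they are given as a description and were not tested at these sites. The mirrored rules found 1657 CpGs less methylated only in liver, 331 more methylated only in heart and 242 more methylated only in lung.

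The study profiled DNA methylation in 3 organs of the same cold-blooded stallions with RRBS (bisulfite sequencing of a reduced part of the genome), in which a restriction enzyme enriches CpG-rich fragments and unmethylated cytosines are converted before reading. The 3 groups were heart (left ventricle, horses 1 to 4), lung (caudal lobe of the right lung, horses 1 to 4) and liver (right lobe, horses 1, 2 and 4), with 1 library for each organ of each horse. All animals were untreated and healthy, aged 1 to 2 years, and came from a slaughterhouse, and no liver library of horse 3 was used here. The samples were bulk tissue, so a level between 0 and 100% can come from a share of the cells or from a share of the DNA copies within each cell, and these cannot be told apart. Expression was not measured in these libraries, so the organ labels were not checked against marker genes.

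Methylation of CpGs is laid down by DNA methyltransferases and copied at each cell division. Most CpGs of mammalian tissues are methylated, while CpG-dense promoters mostly are not, and partly methylated sites are often found at enhancers, where the level follows which cell types use the element. In liver, hepatocytes make up most of the tissue mass, and factors such as FOXA1 and its relatives open enhancers of hepatocyte genes.

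The median number of reads on the chosen CpGs was 15 in the shallowest library, liver of horse 2, and between 18 and 51 in the others. At 15 reads, 1 read moves a level by several points, so levels of single CpGs in that library were coarse. The count of chosen CpGs depended on this library. Leaving it out also dropped its read minimum, so 113565 CpGs could be evaluated in place of 68147. Of these, 1649 were chosen, and 695 of them were among the 779. Leaving out any of the other 10 libraries, with its read minimum, gave 793 to 997 CpGs.

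In heart, the mean level over the 779 CpGs was 35.2, 37.6, 36.2 and 34.5% in horses 1 to 4 (35.9% ± 1.37, SD, n = 4). In lung it was 39.3, 35.6, 38.5 and 35.7% (37.2% ± 1.91, SD, n = 4). In liver it was 67.9, 69.6 and 68.1% in horses 1, 2 and 4 (68.5% ± 0.920, SD, n = 3). The 3 liver libraries were nearly level with each other and the 8 heart and lung libraries lay well below them, as the rule required at each site. The median of the tissue means was 36.9% in heart, 39.1% in lung and 71.0% in liver, against 81.9, 82.1 and 82.1% over all common CpGs. The chosen sites were therefore mostly partly methylated in heart and lung and, in liver, still below the usual level of a common CpG. The rule could not choose CpGs near full methylation in heart and lung, so the lower level of the chosen sites there was partly set by it.

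**Figure D1:**
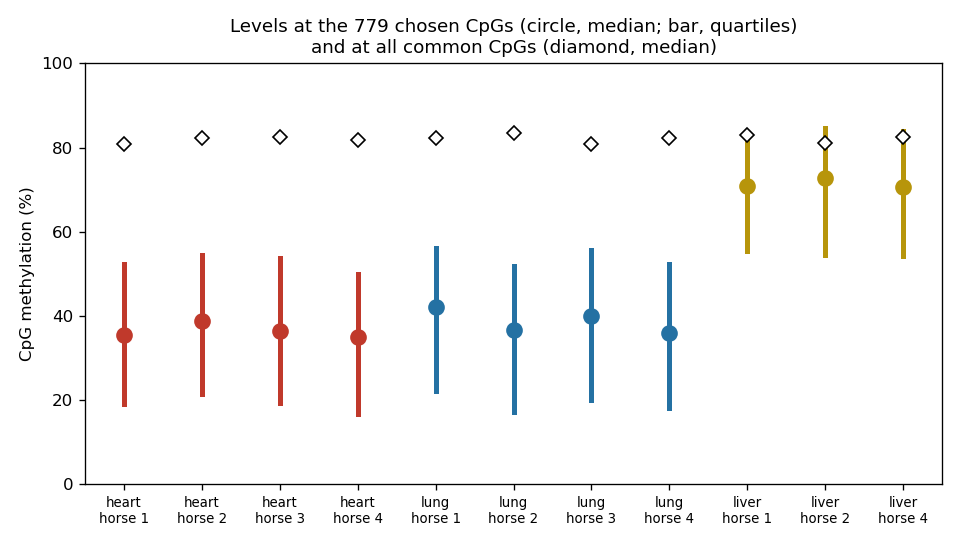
Methylation level (%) in each of the 11 libraries. Circles and bars give the median and quartiles over the 779 CpGs, and diamonds the median over all 68147 common CpGs. The liver medians of the 779 CpGs lie between 70.6 and 72.7% and the heart and lung medians between 35.0 and 42.1%, while the diamonds sit between 80.8 and 83.3% in every library.

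The difference between liver and the higher of the other tissues had a median of 27.7 points and quartiles of 23.3 and 32.5 points. It reached 30 points at 277 CpGs, 40 points at 63, 50 points at 21 and 60 points at 8, with a highest value of 70.9 points. The gap between the lowest liver library and the highest heart or lung library had a median of 10.95 points and ranged from 0.0436 to 61.8 points, so the libraries were barely apart at some sites and far apart at others. Heart and lung were close to each other, with a median absolute difference of 5.21 points; lung was higher at 454 CpGs, heart at 322, and both were equal at 3. The SD between libraries had a median of 7.24 points in heart, 8.06 in lung and 6.86 in liver, against 5.14, 5.57 and 5.25 points over all common CpGs.

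The least extreme members lay at the limit of the rule. On chromosome 8 the CpG at 25502297 had means of 25.9% in heart, 26.1% in lung and 46.1% in liver, a difference of 20.02 points, and the CpG at 43514779 on chromosome 24 had 67.6, 58.3 and 87.7%. Just outside lay the CpG at 42307104 on chromosome 13, with 52.5, 53.3 and 73.2%, and the CpG at 2443224 on chromosome 5, with 30.3, 42.5 and 62.5%. A further 354 CpGs met every other condition with a difference of 15 to under 20 points. The values ran on past the limit without a break.

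The CpGs differed mainly in where heart and lung started. At 91 sites (11.7%) the mean of heart and lung was under 10%, and the median liver level there was 40.1%. At 199 sites (25.5%) it was 10 to under 30%, with a median liver level of 53.5%, and at 249 sites (32.0%) it was 30 to under 50%, with 72.1% in liver. At the remaining 240 sites (30.8%) heart and lung averaged 50% or more and the median liver level was 87.3%. The class of 50% or more held 53370 of the common CpGs, and 0.450% of them were chosen. In the 2 middle classes 6.27 and 5.77% of the CpGs were chosen, and 1.25% of those under 10%. The rule needed liver at least 20 points above both organs, so CpGs near full methylation in heart and lung could not be chosen. Over all common CpGs the medians of heart and lung were 81.9 and 82.1%, so this limit lowered the share in the highest class. The rule also set a lower bound on liver that rose with heart and lung. The shares and the liver medians of the classes therefore partly reflect the rule. Liver reached 80% or more at 254 sites and stayed under 50% at 142. Heart and lung were both under 10% at 68 sites, and liver was at 50% or more at 18 of these. The median difference between liver and the higher other tissue was 32.5 points in the class under 10%. In the classes above it was 29.4, 28.2 and 24.5 points.

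**Figure D2:**
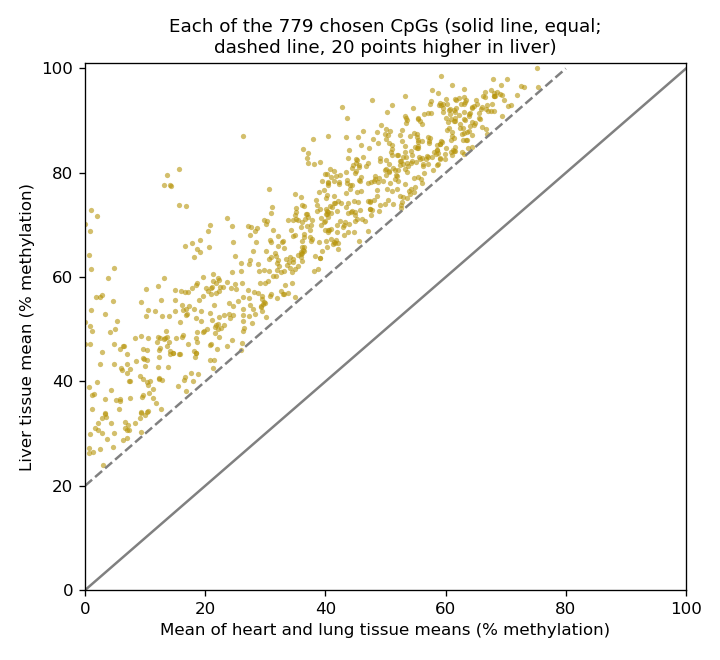
Liver mean (%) of each of the 779 CpGs against the mean of its heart and lung means (%), with lines for equal levels and for a difference of 20 points. The points fill a band above the dashed line, and those at the left edge, under 10% in heart and lung, have a median liver level of 40.1%.

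Most chosen CpGs stood alone and some lay in runs. When members no more than 200 bases apart were joined, 437 of 779 stood alone, 95 pairs formed, and 152 members (19.5%) fell into 40 runs of 3 or more, which were 9 to 173 bases long. In 26 of the 40 runs every common CpG within the span was a member. The run means of liver lay above those of the higher other tissue by 22.3 to 58.8 points, with a median of 31.8 points. Of the members in the class under 10%, 45.1% were in such runs, against 24.1, 15.3 and 10.4% in the classes above. Of 202 pairs of neighbouring members under 75 bases apart, 164 had read counts within 10% of each other in every library, as sites covered by the same reads do. The CpGs of a run are therefore not separate measurements.

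Gene names were at hand for a minority of sites, because they came from positions that the study listed with Ensembl annotation on EquCab3.0. Those positions were sites that the study had called differentially methylated between these tissues. The same data therefore helped to decide which members had a name. In all, 182 members were annotated at their own position and 14 lay between annotated positions of 1 gene, which gave 131 gene names; the other 583 had none. Among the 182, 146 were in introns, 27 were upstream of a gene, 5 were in coding exons and 3 were downstream. Since only listed positions were annotated, these counts say nothing of the shares of gene parts.

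The largest differences were upstream of RAI1, which encodes a nuclear protein that regulates transcription and whose loss in humans causes a developmental disorder. The run held 7 members at chr11:60519323-60519388 (EquCab3.0) and all 7 common CpGs of its span. Its heart levels were 0, 0.595, 1.79 and 0%, its lung levels 0, 0, 4.40 and 0%, and its liver levels 53.6, 59.7 and 66.3%. The groups lay far apart, with means of 0.595% ± 0.842 (SD, n = 4), 1.10% ± 2.20 (SD, n = 4) and 59.9% ± 6.37 (SD, n = 3). Within the run the liver level was uneven, from 37.6% ± 5.92 at 60519371 to 72.8% ± 11.1 at 60519366, 5 bases apart. At 60519347 no methylated read was found among 87 reads of heart or 56 of lung, which allows a level of up to 3.45 and 5.36%, while liver stood at 61.8, 72.7 and 76%.

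A second run with almost no methylation outside liver lay at chr12:34445848-34445904, in an intron of a gene without a symbol (ENSECAG00000028346). It also held 7 members of 7 common CpGs. Levels were 0.714, 0.697, 1.33 and 0% in heart, 1.53, 1.90, 1.19 and 4.08% in lung, and 50.1, 56.8 and 52.5% in liver (53.1% ± 3.40, SD, n = 3). No other tissue library came within 45 points of any liver library.

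Several other runs also started near 0. In an intron of ANO1, a calcium-activated chloride channel, 3 members at chr12:32776349-32776390 had 0.9804, 0, 2.15 and 0% in heart, 2.36, 0.654, 4.35 and 0% in lung and 31.5, 45.1 and 30.9% in liver. A run of 3 at chr1:138891791-138891847, with no gene name at hand, had means of 1.31% ± 0.416 in heart, 4.00% ± 2.59 in lung and 39.8% ± 6.19 in liver. It had 135 to 509 reads per library, summed over its CpGs. At chr8:72870980-72871034, 4 members averaged 7.29% ± 2.87, 2.85% ± 1.13 and 45.4% ± 2.44. In all of these runs liver was intermediate and did not approach the level of a fully methylated site.

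Other runs with many members started from partial methylation. At chr2:22576433-22576601, 7 members over 169 bases had heart levels of 13.1, 14.9, 13.9 and 10.9%, lung levels of 21.3, 14.3, 14.5 and 11.7%, and liver levels of 49.6, 50.3 and 48.7%. The 3 horses were within 2 points of each other in liver. At chr2:48840414-48840463, 7 members had means of 18.9% ± 11.2 in heart, 9.75% ± 6.95 in lung and 74.4% ± 7.36 in liver. Its heart libraries ranged from 5.86 to 31.7%. Runs of 5 members lay at chr1:185870312-185870354 (36.0% ± 4.36, 33.1% ± 3.75 and 67.0% ± 8.14 in heart, lung and liver) and chr3:36089610-36089738 (43.9% ± 8.13, 49.7% ± 5.18 and 79.9% ± 5.71). Runs of 4 lay at chr7:78274-78300 (16.0% ± 5.46, 17.5% ± 6.37 and 52.2% ± 12.1) and chr13:40847645-40847676 (30.2% ± 8.40, 40.2% ± 9.66 and 73.3% ± 4.65). None of these 6 had a gene name at hand. In an intron of WDR41, which encodes a partner of C9orf72 in a complex at lysosomes, 5 members at chr14:88270108-88270280 spanned 173 bases, the longest run, with 38.7% ± 6.14, 43.0% ± 5.14 and 74.5% ± 2.25.

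**Figure D3:**
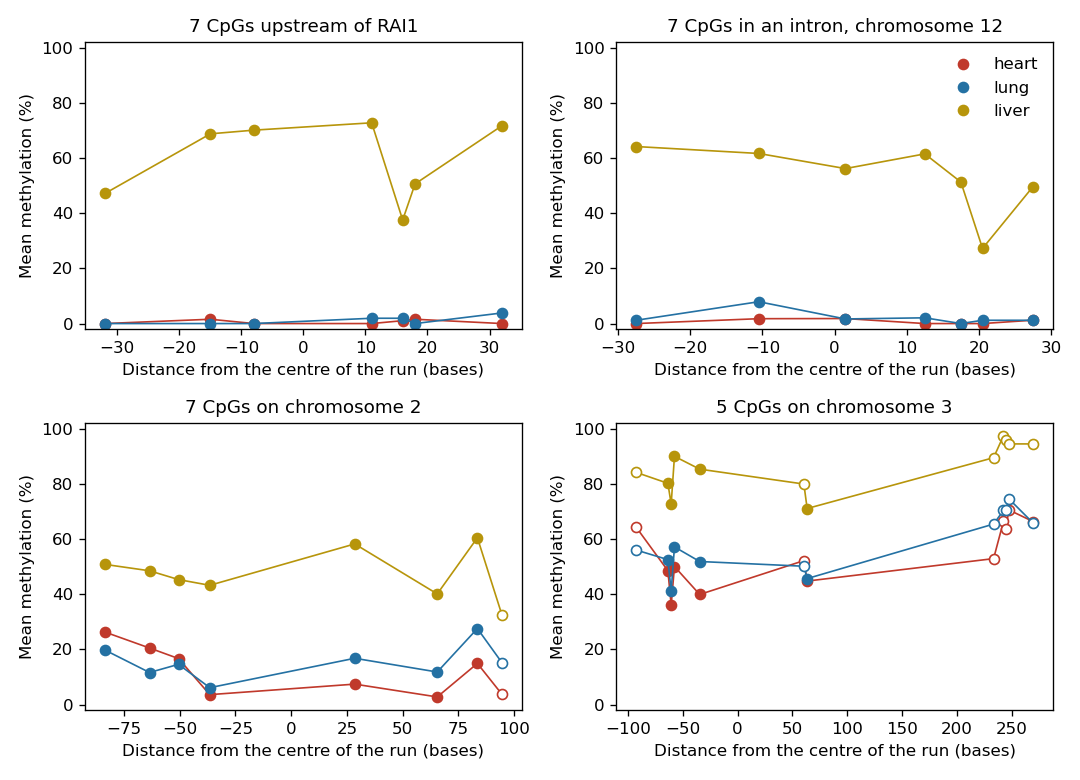
Mean methylation (%) of heart, lung and liver at each CpG of 4 runs, against the distance in bases from the centre of the run. Filled circles are members and open circles are other CpGs with 10 or more reads in the 10 libraries other than liver of horse 2. Upstream of RAI1 and in the chromosome 12 intron heart and lung stay near 0 while liver moves between sites, and on chromosome 3 the 5 open circles to the right, at 89.6 to 97.5% in liver, show the difference going on beyond the members.

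Around the run on chromosome 3, 6 further CpGs were read in the 10 libraries other than liver of horse 2, at 29 to 206 bases from it. Without that library they averaged 64.1% in heart, 67.1% in lung and 93.3% in liver. Among those at 170 to 206 bases, only the CpG at 36089918 was called higher in liver than in heart. None of them was called against lung. Next to the run on chromosome 7, a CpG 37 bases away had 8.63, 13.5 and 35.0% in heart, lung and liver with all libraries used. In ANO1, a CpG 14 bases away had 0.806, 0.581 and 9.35% with all libraries used. The difference was much smaller at this CpG than within the ANO1 run.

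Among transcription factors that pattern organs, the annotated members named from here on are outside the fixed naming rule and were picked after their values had been seen. FOXA1, a forkhead factor that opens chromatin in endodermal organs including liver and lung, had 2 upstream members. At 175958101 on chromosome 1 the levels were 2.56, 7.23, 6.90 and 3.33% in heart, 2.50, 17.6, 10.7 and 26.7% in lung and 45.7, 44.0 and 48.7% in liver. At 175958671 the means were 7.99% ± 2.32, 21.1% ± 4.73 and 45.5% ± 8.38. The lung mean was above the heart mean at both positions, although the libraries of these organs overlapped at the first, and every liver library lay above them. In addition, 2 further CpGs lay 13 and 25 bases from the second position, and neither was a member. With all libraries used, they had 6.59 and 7.32% in heart, 15.3 and 24.1% in lung and 30.3 and 36.7% in liver. Without the liver of horse 2 they averaged 6.95, 19.7 and 41.1%, so that library lowered the liver level there.

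SHH, a secreted morphogen of embryonic patterning, had 2 intronic members at chr4:106521400-106521460. Heart levels were 0, 0, 4.05 and 0%, lung levels 2.78, 3.75, 5.51 and 5.56% and liver levels 43.9, 59.4 and 50.8%. Heart and lung together stayed under 6%, and the lowest liver library was over 38 points higher. MEIS1, a homeobox cofactor of HOX proteins, had 2 intronic members with means of 24.1% ± 6.75 in heart, 34.3% ± 9.41 in lung and 70.2% ± 12.1 in liver. CDX2, the homeobox factor of the intestinal epithelium, had 2 with 33.3% ± 4.82, 29.4% ± 6.12 and 61.5% ± 8.28. RBPJ, the DNA-binding factor of Notch signalling, had 1 with 10.4% ± 3.63, 16.1% ± 10.3 and 48.2% ± 6.36. MEF2C, a factor of muscle differentiation, had 1 with 57.9% ± 17.3, 53.1% ± 14.4 and 86.2% ± 4.09, where the heart libraries alone spread from 36.4 to 76%.

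Few genes of the cell-type lists occurred among the annotated positions. Of 25 hepatocyte genes, 2 occurred among the annotated positions and 1, FOXA1, had a member. Of 20 striated muscle genes 5 occurred and 1, MEF2C, had a member. None of the 1 lung gene and 3 blood and endothelial genes that occurred had one, out of lists of 13 and 12. Of 19 genes of developmental transcription factor families that occurred, FOXA1 and MEIS1 had members. A gene could occur only through a site that the study had called different between tissues, so occurrence itself depended on these data. With so few genes annotated, absence from the set is not informative for the rest of each list.

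Other members were annotated to genes known for metabolism or for handling foreign compounds. FMO1, a flavin-containing monooxygenase that oxidises drugs, had 2 intronic members at chr5:7351369-7351406, with 5.32, 1.72, 0 and 5% in heart, 2.78, 1.06, 6.67 and 2.38% in lung and 37.9, 45.8 and 26.7% in liver. Its liver libraries were all above 26% and no other library exceeded 7%. NR1I2, the nuclear receptor that senses foreign compounds and induces cytochrome P450 genes, had 2 with 52.7% ± 4.28, 62.1% ± 7.04 and 84.0% ± 6.80. Both coactivators of mitochondrial biogenesis were annotated: PPARGC1A had 1 intronic member with 47.9% ± 6.42, 34.8% ± 2.49 and 74.2% ± 5.37, and PPARGC1B had a run of 3 with 21.3% ± 0.959, 29.1% ± 9.88 and 61.3% ± 10.4. BCO1, which cleaves beta-carotene, had 1 with 18.5% ± 9.68, 30.4% ± 5.03 and 60.9% ± 9.09. DDAH1, which breaks down an inhibitor of nitric oxide synthases, had 1 with 11.9% ± 7.05, 24.4% ± 5.69 and 63.8% ± 9.40.

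Another 4 genes are given for their known roles in immunity and oxygen sensing. IRF2, a transcription factor of the interferon response, had 2 intronic members on chromosome 27 with means of 6.05% ± 6.24 in heart, 2.94% ± 1.98 in lung and 37.7% ± 3.27 in liver. IRF8, a factor of macrophages and dendritic cells, had 1 with 59.4% ± 4.41, 67.6% ± 10.2 and 87.8% ± 1.28. NOS2, the inducible nitric oxide synthase, had 1 with 44.5% ± 5.72, 37.6% ± 8.75 and 73.4% ± 13.03. EPAS1, a subunit of the hypoxia-inducible factors, had 1 with 61.7% ± 4.42, 58.1% ± 5.83 and 82.6% ± 1.04. IRF2 alone of these 4 started near 0; the others had means over 37% in heart and lung.

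Of the further runs of 3 or more with a gene name, 4 are given here. MYOM3, a protein of the M-band that holds thick filaments in the sarcomere, had 5 intronic members, 4 of them in a run at chr2:31055982-31056030 with 35.3, 43.2, 53.5 and 39.3% in heart, 59.1, 40, 38.8 and 43.5% in lung and 86.5, 79.5 and 71.8% in liver. Heart and lung overlapped in part there, at means of 42.8% ± 7.81 and 45.3% ± 9.39. WWTR1, which encodes the Hippo pathway coactivator TAZ, had 3 with 34.0% ± 5.09, 34.6% ± 6.13 and 72.8% ± 16.0, and its liver libraries spread from 54.3 to 82.7%. PRKCE, a protein kinase C, had 3 with 23.0% ± 7.71, 13.2% ± 8.09 and 58.0% ± 0.841. Upstream of TOP1MT, the topoisomerase of mitochondrial DNA, 4 members had 58.2% ± 7.77, 57.3% ± 9.79 and 88.5% ± 3.98.

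The choice of sites was then repeated without 1 horse at a time, and the levels were read in the libraries of the horse left out, which had no part in that choice. Without horse 1, 1036 CpGs were chosen, and in horse 1 their mean level was 39.1% in heart, 44.4% in lung and 65.9% in liver. Liver was above both other organs at 901 of them (87.0%), and by 20 points or more at 44.6%; over all common CpGs these shares were 35.1 and 2.40% in that horse. Without horse 2, 984 CpGs were chosen and the levels in horse 2 were 39.4, 38.6 and 63.9%, with liver above both at 848 (86.2%, against 33.7% over all common CpGs). Without horse 4, 1021 CpGs were chosen and the levels in horse 4 were 38.2, 39.9 and 63.1%, with liver above both at 849 (83.2%, against 31.3%). Liver had the highest mean in each horse left out, while heart and lung changed places between horses. With 1 animal left out at a time this is a description and no test.

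**Figure D4:**
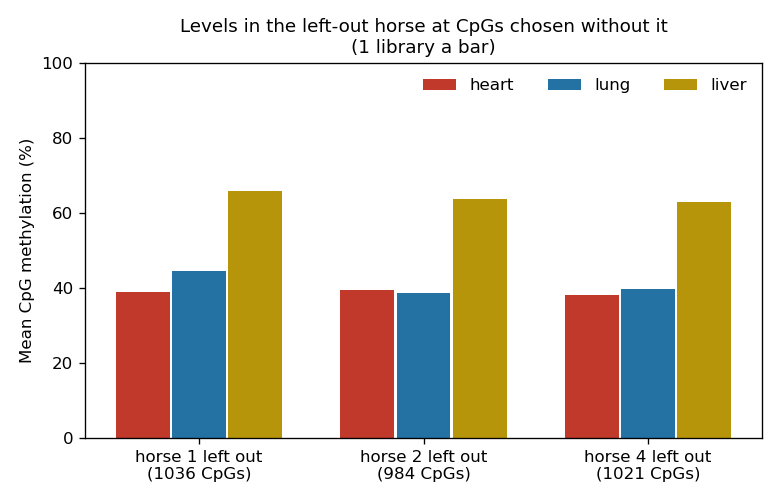
Mean methylation (%) of heart, lung and liver in the left-out horse, over the CpGs chosen from the other horses. Each bar is 1 library, and the liver bars stand at 65.9, 63.9 and 63.1% against 38.2 to 44.4% for heart and lung.

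In the comparison of heart with liver across 77277 CpGs, the moderated quasi-likelihood test called 4511 CpGs (5.84%) at a Benjamini-Hochberg adjusted p below 0.01 and a difference of 25 points or more. Of these 2193 were higher in liver, which is 2.84% of the CpGs tested. Of the 779 members 499 were called; the rule used this contrast, so nothing is read from that share. In the comparison of lung with liver, 2789 of 73050 CpGs (3.82%) were called, 1129 of them higher in liver (1.55%), and 422 members were among these. Same-numbered libraries come from the same horse. With the horse as a block the same test called 0 CpGs in either comparison, although 11180 and 7899 had an unadjusted p below 0.05. A fit in edgeR with the horse blocked called 3602 and 2426 CpGs, and 2.17 and 1.28% of all tested CpGs were called higher in liver. Among the calls were 372 and 351 members. Leaving out the liver of horse 1 lowered the unblocked counts to 2608 and 1640, with 239 and 177 members. There 1.20 and 0.669% of all tested CpGs were called higher in liver. The rule used these contrasts, so nothing is read from any of these member counts.

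CpGs near the members that the rule could not evaluate were examined for the same direction. In the heart and liver comparison, 39 CpGs at 76 to 1000 bases from a member, beyond the 75 bases of a read, had too few reads in some lung library for the rule, and 1 was called higher in liver (2.56%, against 2.84% over all CpGs tested) and 1 lower. In the lung and liver comparison 1 of 16 was called (6.25%, against 1.55%). These are too few to say whether the calls near members differ from the background.

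A larger set was therefore added after the data had been seen: CpGs with 10 or more reads in the 10 libraries other than liver of horse 2 and fewer in that library. Of 113565 CpGs fitted without that library, 2.35% were called higher in liver than in heart and 1.13% higher in liver than in lung. At 76 to 1000 bases from a member, 130 CpGs had median differences of 6.02 points for liver against heart and 9.88 points for liver against lung. Liver was above both organs at 91 of them (70.0%), against 37.9% of CpGs over 20000 bases away. The median heart level was 64.2% at the 130 and 82.6% at the distant CpGs, so the 2 groups were not matched for starting level. Of the 130, 10 (7.69%) were called higher in liver than in heart and 6 (4.62%) higher than in lung, and 0 were called lower. With the horse as a block, edgeR called 3 and 2, against 1.08 and 0.475% of all these CpGs, and the moderated test called 0 and 0. The liver libraries of horses 1 and 4 also took part in the choice of the members, and neighbouring CpGs share animals and libraries with them.

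The share of CpGs with liver above both organs was read by distance. At 1 to 75 bases, where a CpG can lie on the same reads as a member and so shares the values that chose it, 25 CpGs of this set had medians of 44.7% in heart, 48.9% in lung and 71.3% in liver. Liver was above both at 92.0% of them. The share was 74.2% at 76 to 200 bases (n = 31), 72.3% from there to 500 bases (n = 47), 65.4% from there to 1000 bases (n = 52), 43.8% from there to 5000 bases (n = 219) and 40.1% from there to 20000 bases (n = 656). The medians of heart and lung were under 50% within 75 bases and over 80% beyond 1000 bases, while that of liver was between 66.7 and 86.3% throughout. Beyond 1000 bases the medians of the 3 organs lay within 3 points of each other. The calls did not fall steadily, since 0 of 52 CpGs in the bin up to 1000 bases were called higher in liver than in lung, against 11 of 219 (5.02%) in the bin up to 5000 bases. In the smaller set of the lung and liver comparison, 11 of 39 (28.2%) were called in that bin.

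**Figure D5:**
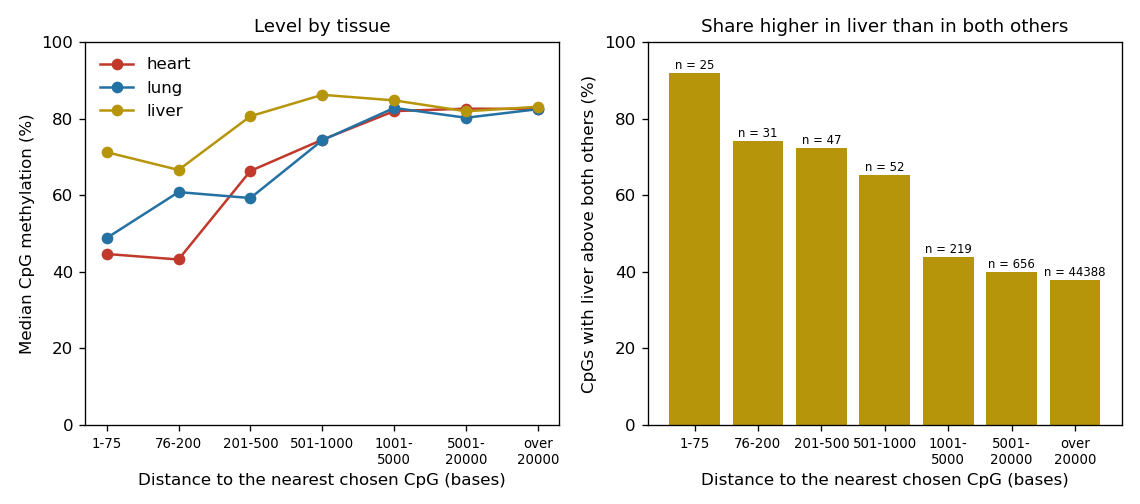
CpGs that the rule did not evaluate, by distance in bases to the nearest member. The left panel gives the median methylation (%) in heart, lung and liver, and the right panel the share (%) of CpGs with liver above both, with n above each bar; the share is 74.2% at 76 to 200 bases and 37.9% beyond 20000 bases, and the first bin can share reads with the members.

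Of the 130 CpGs at 76 to 1000 bases, 3 were called in both comparisons. The share called in both over all fitted CpGs was not computed, so nothing is read from this count. The 3 are given as a description. In the intron of LRRC8B, a subunit of volume-regulated anion channels, a CpG 244 bases from a member had 4.72% ± 5.27 in heart, 5.18% ± 3.46 in lung and 47.4 and 38.1% in the livers of horses 1 and 4 (limma-moderated adjusted p = 0.0011 against heart and 0.0012 against lung). The member itself, at 71601740 on chromosome 5, had 13.02% ± 4.47, 12.4% ± 5.89 and 55.6% ± 9.62. In the same stretch, CpGs 237, 246 and 295 bases from it had 22.7, 14.0 and 15.5% in liver and were called in neither comparison. The other two lay on chromosome 4, at 35194792 and 35194817, 136 and 161 bases from a pair of members. Their levels were 19.0% ± 13.8 and 6.81% ± 5.79 in heart, 2.69% ± 3.77 and 0% in lung, and 54.3 and 34.3% in liver. The members of that pair had 37.9 and 41.6% in liver and under 14% in heart and lung. Both called CpGs there can lie on the same reads. The CpG at 35194858, 202 bases from the pair, had 30.4 and 3.45% in the livers of horses 1 and 4. It was called in neither comparison.

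Few other CpGs were listed close to the chosen sites. The median number of other listed CpGs within 100 bases was 2, against 3 for all common CpGs, and 6.29% of the members had 10 or more, against 12.6%. For CpGs less methylated only in liver the share with 10 or more was 1.15%, for those more methylated only in heart 4.53% and only in lung 4.55%, with a median of 2 in each. Within 500 bases the median was 7 for the members and 7 for all common CpGs. In the class under 10% in heart and lung the median was 4, against 6 for all common CpGs of that class.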

How the data were processed

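Genomic DNA of 4 heart, 4 lung and 3 liver samples was analysed by RRBS (Ovation kit, single-end reads of 75 bases). Per the labels and methods, the authors filtered reads, mapped them to EquCab3.0 and kept uniquely mapped reads. The submitters' processing notes name the tools FastQC and BSMAP with no version. The deposited tables give, for each cytosine of a CpG, the coverage in reads (a count) and the percent of C and of T; positions with under 5 reads are not listed. The authors' percent was multiplied by coverage and rounded, which gave whole reads within 0.05 points at 99.8% or more of the positions. The 2 strands of a CpG were summed, chromosomes 1 to 31 kept, and 10 reads required. Single libraries held 3255257 to 25109840 summed reads.

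Each CpG was fitted by logistic quasi-likelihood regression of methylated and unmethylated reads on tissue, with dispersions moderated by limma 3.58.1 (R 4.3.3), a floor of 1 and Benjamini-Hochberg adjustment, and was checked on simulated data. Alternatives used the horse as a block, edgeR 4.0.16, Fisher's exact test on pooled reads, other thresholds, and each library left out. By the labels, libraries with the same number come from 1 horse, and the correlation of their departures from the group means was 0.0509 to 0.180 for heart and liver and 0.185 to 0.217 for lung and liver. Between different horses it was -0.139 to 0.0585 for heart and liver and -0.134 to 0.0289 for lung and liver. The liver of horse 1 had a higher value with the heart of horse 3 (0.0585) than with its own heart (0.0509). The horses are separate animals; counts of reads hold PCR copies, so limits on levels of 0 cover counting error only (3 counts of the total). Named regions are the 10 runs with the most members (ties went to the larger mean difference), runs of 3 or more with heart and lung under 5%, the 5 members with the largest gap between libraries, the 2 CpGs on each side of the limit, and any run of 3 or more in a listed gene. Gene names came from positions annotated in the study's supplementary tables, of which 3540 were read. The values printed for these positions were not used. The positions were listed as differentially methylated sites of the same samples, so their listing depended on these data. Symbols missing there were looked up by Ensembl ID in RefSeq. No sequences were printed, since no genome of this build was used here. The members and lists were chosen with earlier results of these data known.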

Additional observations from a re-analysis of the deposited data

Results flagged for a closer look

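In 3 of 34 groups of 4 libraries tested over the named runs, 1 library lay apart from the other 3, where chance flags about 1 group in 20. In the run at chr1:185870312-185870354 the heart of horse 3 stood at 29.5%, against 38.3, 37.6 and 38.6% in the other hearts. Upstream of RAI1 the lung of horse 3 stood at 4.40%, against 0% in the other lungs. With 0% in the others, any level above 0 would have been flagged, so this flag says nothing about the size of the departure. In the run on chromosome 13 at 40847645 the heart of horse 2 stood at 17.7%, against 33.9, 33.3 and 35.9%.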

How the results depend on the processing

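The number of chosen CpGs was 135 at a minimum of 20 reads and 2351 at 5 reads. It was 277 at 30 points and 388 on the plus strand alone. With 1 library left out it was 793 to 1649. The highest count came without the liver of horse 2, when 113565 CpGs could be evaluated. Except at 30 points, these settings also changed how many CpGs could be evaluated. At 20 reads, 689 of 15611 tested CpGs were called for heart and 430 of 14256 for lung. Those called higher in liver were 2.27 and 1.41% of the CpGs tested there, against 2.84 and 1.55% in the main fits. With 1 library left out, 2608 to 4283 of 77277 and 1640 to 2732 of 73050 were called, the lowest without the liver of horse 1. With the horse as replicate block the moderated test called 0 CpGs in both comparisons and edgeR 3602 and 2426. Calls among the neighbours were 2 and 3 at an adjusted p of 0.05, 0 and 0 with the block in edgeR, 0 to 2 and 0 to 1 with 1 library left out, and 10 and 6 in the set read in 10 libraries, which became 0 and 0 (moderated) and 3 and 2 (edgeR) with the replicate block. At 20 reads no neighbour was left to test. Liver was above both organs in horses 1, 2 and 4 at 94.9, 93.8 and 88.3% of the CpGs chosen at 30 points. Within 500 bases the median number of listed CpGs was 7, as for all common CpGs. The cause of these shifts was not tested. The direction of all 192 recomputed differences of the 16 named runs and genes was fixed by the rule, so it is no sign of stability. Depth limited single CpGs, above all in the liver of horse 2.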

Other observations

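Further annotated members, chosen after their values had been seen, belonged to guidance and signalling genes. NTN1, the guidance cue netrin, had intronic members at 52186785 and 52244664 on chromosome 11, the first with 41.1% ± 13.4 in heart, 44.5% ± 9.56 in lung and 92.7% ± 1.52 in liver. UNC5A, a netrin receptor, had 1 with 11.1% ± 5.43, 13.5% ± 2.79 and 40.7% ± 4.38. GNAQ, a G protein subunit that activates phospholipase C, had intronic members at 13105068 and 13258954 on chromosome 23, with 93.7% ± 0.641 and 93.9% ± 5.30 in liver and 52.9 to 62.4% in heart and lung. IQGAP1, a cytoskeletal scaffold, had 2 with 38.4% ± 10.2, 41.0% ± 11.3 and 84.6% ± 8.22. Among genes of chromatin and DNA repair, SMCHD1, a silencing protein of the inactive X chromosome, had 2 with 33.9% ± 4.80, 46.1% ± 6.33 and 68.9% ± 7.86. KDM4B, a histone demethylase, had 1 with 18.7% ± 10.4, 20.6% ± 6.57 and 49.6% ± 12.9. MBD4, a glycosylase that repairs mismatches at methylated CpGs, had 1 coding member with 47.4% ± 1.31, 52.7% ± 11.6 and 82.4% ± 16.8, where the liver libraries spread from 66.7 to 100%.

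Most members, 640 of 779, were read on 1 strand. In the 51 with 10 or more reads per tissue on each strand, whose summed reads made the choice, the difference reached 20 points on both strands in 27. Chromosome 27 held 21 members among 827 common CpGs (2.54%) and chromosome 24 held 33 among 1388 (2.38%), against 11 of 1804 (0.610%) on chromosome 28.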
